A study of Mus musculus with 30 samples.

Results

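The clustered histone genes of the mouse were followed across 30 RNA-seq libraries of stromal cells. Members were the rows of the count table whose symbol began with Hist1h, Hist2h, Hist3h or Hist4h, and they numbered 67 of 43346 genes. The annotation (GENCODE M21) held 70 such symbols, and Hist1h2bh, Hist1h2bm and Hist2h2bb had no row in the table. By protein the members were 6 linker histone (H1), 20 H2A, 16 H2B, 12 H3 and 13 H4 genes. By symbol, 54 were Hist1 genes on chromosome 13, 9 Hist2 genes on chromosome 3, 3 Hist3 genes on chromosome 11 and 1 a Hist4 gene on chromosome 6. The cluster was read from the symbol and not from the position. Hist1h2al, for example, lies far from Hist1h1c by the coordinates given below. The gene model had a single exon in 61 members.

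Core histones H2A, H2B, H3 and H4 form the nucleosome, and H1 binds the linker DNA between nucleosomes. The clustered genes are transcribed mainly during S phase, when new DNA has to be packaged, and their messages usually end in a short stem-loop in place of a poly(A) tail. The stem-loop is bound by SLBP and cut by a complex that includes symplekin. Replacement variants such as H3.3 are encoded outside the clusters, carry poly(A) tails and are made throughout the cell cycle. In bone marrow, the dividing precursors of blood cells are a known source of histone messages.

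The libraries came from cells without GFP, sorted from bone, lung or brain of female immunodeficient NSG mice, 6 to 8 weeks old. Exposed mice carried subcutaneous estrogen pills and had received 100000 GFP and luciferase labelled cells of a circulating tumour cell (CTC) line, Brx07, Brx42, Brx50 or Brx68, in the left ventricle of the heart. Lesions were dissociated and RNA was taken from 50000 sorted cells, and total RNA is the molecule the labels give. There were 13 exposed and 3 tumour-free control libraries of bone, 7 and 2 of lung, and 3 and 2 of brain. The exposed bone libraries came from mice given Brx07 (2, numbered 1 and 2, one from leg and the other from skull), Brx50 (4, numbered 3 to 6) and Brx68 (7, numbered 7 to 13). The 7 exposed lung libraries had Brx07 (2), Brx50 (3), Brx42 (1) and Brx68 (1), and the exposed brain libraries had only Brx50. Pills in the control mice were not given in the sources used here. NSG mice lack mature lymphocytes, so the stroma is that of a host without an adaptive immune system. The GFP- gate does not by itself select among the host cells of the lesion, so blood cells can be included. The labels do not tie libraries to mice, and some titles share a code whose meaning they do not give, so p-values below measure the spread between libraries, which may in part be technical.

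Totals ran from 4289012 to 15646947 counts per library. Markers of the labelled tissue were present in the controls: the sum of Mpo, Elane and Bglap was 1333 to 1925 CPM (counts scaled to a library total of 1000000) in bone and at most 2.33 in the other controls, that of Sftpc, Ager and Scgb1a1 was 1799 to 2269 in lung, and that of Aqp4, P2ry12 and Snap25 was 1376 to 1736 in brain. Several exposed libraries stood apart. Bone exposed 12 had 0 counts of Mpo and Elane, and bone exposed 7 and 12 had no count of 22 members. Bone exposed 2, from the skull, held 199.97 CPM of the brain markers against 2.54 to 3.61 in the bone controls. Lung exposed 1 had 120.1 CPM of lung epithelial markers, and brain exposed 2 had 193.7 CPM of the bone markers. Brain exposed 1 was the shallowest library and had no count of 33 members. The common biological coefficient of variation was 0.535 in exposed and 0.134 in control bone, 0.487 and 0.115 in lung, and 0.397 and 0.131 in brain.

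The stem-loop that marks replication-dependent histone messages was read from the GENCODE M21 transcripts (GRCm38) with the pattern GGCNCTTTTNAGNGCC, on the transcript strand. It was present in the annotated transcripts of 40 of the 67 members (4 of 6 H1, 11 of 20 H2A, 8 of 16 H2B, 8 of 12 H3 and 9 of 13 H4), against 47 of 55450 annotated genes (0.0848%). Of 11 replacement variant genes, H2afx, which encodes the damage-responsive variant H2A.X, held it. An annotated model that stops short of the message's end cannot show a stem-loop. Among members without one, the exon models of Hist1h4k, Hist1h2bn and Hist1h3i were only 312, 381 and 411 bases long. A member counted as without the stem-loop may therefore still carry it in its message. One site of each class and that of H2afx are shown because they carry the most frequent forms and that of the variant, with the 16 bases of the stem-loop in capitals and 5 bases on either side.
Hist1h1c: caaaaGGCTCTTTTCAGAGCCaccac
Hist1h2ab: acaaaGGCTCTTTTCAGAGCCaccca
Hist1h2bk: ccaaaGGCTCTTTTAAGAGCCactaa
Hist1h3e: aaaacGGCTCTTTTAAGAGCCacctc
Hist1h4d: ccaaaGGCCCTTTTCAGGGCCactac
H2afx: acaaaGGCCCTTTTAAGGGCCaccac
The form of Hist1h1c and Hist1h2ab was the most frequent, with 24 members. The form of Hist1h4d occurred in 7 members, all of class H4, and that of Hist1h2bk and Hist1h3e in 6. The other 3 members with a stem-loop (Hist1h4i, Hist2h4 and Hist2h2ac) held forms that are not shown. The annotated transcript ended within 100 bases of the stem-loop in 20 members and ran on for 300 bases or more in 16, for example for 840 bases in Hist1h1c and 2445 in Hist4h4. The files do not tell which end the counted reads came from.

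Upstream sequence was available for 59 members (RefSeq, GRCm38.p6, 250 bases before the start). One window each of an H1, an H2B and an H4 gene is shown, since the elements found differed by class. Capitals mark matches on either strand to the CCAAT box, to the TATA box (as TATAAA), to the octamer known from H2B promoters (as ATTTGCAT), to the H1 box (as AAACACA) and to a part of the H4 element (as GGTCC). Each was searched in both orientations, and none of the matches was required to stand apart from another.
Hist1h1b (chr13:21780626-21780875, minus strand): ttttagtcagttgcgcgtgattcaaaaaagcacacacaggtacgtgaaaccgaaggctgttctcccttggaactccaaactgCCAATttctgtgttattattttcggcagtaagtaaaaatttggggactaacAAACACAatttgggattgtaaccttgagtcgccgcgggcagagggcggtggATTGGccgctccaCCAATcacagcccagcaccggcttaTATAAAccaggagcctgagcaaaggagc
Hist1h2bk (chr13:22035571-22035820, plus strand): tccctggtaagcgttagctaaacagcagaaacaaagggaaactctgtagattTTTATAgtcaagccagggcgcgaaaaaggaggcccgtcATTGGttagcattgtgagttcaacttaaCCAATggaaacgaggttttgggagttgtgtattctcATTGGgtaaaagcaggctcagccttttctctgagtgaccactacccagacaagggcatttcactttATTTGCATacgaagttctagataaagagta
Hist1h4d (chr13:23581318-23581567, plus strand): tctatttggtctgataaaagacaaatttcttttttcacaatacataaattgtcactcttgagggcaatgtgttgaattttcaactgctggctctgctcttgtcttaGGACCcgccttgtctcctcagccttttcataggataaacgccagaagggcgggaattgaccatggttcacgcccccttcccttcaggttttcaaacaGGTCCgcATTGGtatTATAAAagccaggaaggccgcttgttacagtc
CCAAT was found in 48 of the 59 windows (81.4%, against 33.8% of 32536 RefSeq windows of the same length) and in 3 of 12 H4 windows. TATAAA was found in 49.2% of the members' windows and 12.3% of all. The octamer was present in 18.6% against 1.62%, in 7 of 18 H2A and 4 of 13 H2B windows. The H1 box was found in 5 of 6 H1 windows, in 13.6% of all members' windows and in 6.25% of all RefSeq windows. GGTCC was in 11 of 12 H4 windows, while the share over all members, 39.0%, was near the 39.7% of all windows. A match of letters is a description and not a binding site.

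Many members are near-identical copies, which limits what counts per gene can say. In 4 members every stretch of 50 bases recurred in another gene, and these 4 (Hist2h2aa1, Hist2h2aa2, Hist2h3b and Hist2h3c1) had 0 counts in all 30 libraries. In 14 members 85% to under 100% of such stretches were shared, and 5 of those had at most 2 counts in total. None of the 49 members that shared less had so few. The median of the mean CPM was 1.64 in the 14 and 31.2 in the 49. The treatment of reads that fit several genes was not given in the sources used here, so a level at or near 0 in a copied gene is uncertain. Class sums are given throughout, but they include pseudogenes. The H2A sum holds Hist1h2al, annotated as a processed pseudogene, with means of 414 CPM in the bone, 36.5 in the lung and 13.7 in the brain controls. In addition, 10 members overlapped another gene of the table, among them Hist1h1e with Hist1h2be and Hist3h2a with Trim17, and reads of overlapping genes could not be told apart.

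Compared per kb of exon, the highest level in tumour-free bone was that of Hist1h2al (chr13:51202727-51203065, minus strand), annotated as a processed pseudogene, at 1222 ± 30.4 CPM per kb (SD, n = 3). Hist1h1c (chr13:23738808-23740367, plus strand), which encodes a linker histone, was next at 636 ± 34.2. Hist1h2ak stood at 509.9 ± 61.7 and Hist1h4k at 445 ± 67.7 CPM per kb, and their spreads overlapped. Ranks per kb depend on the annotated exon length, which was 312 bases in Hist1h4k and 7425 in Hist1h1d. Hist1h1d, with a mean of 329 CPM in bone, ranked 37 at 44.3 CPM per kb. The same genes, Hist1h2al and Hist1h1c, held the first and second rank in lung (107.6 ± 2.27 and 62.4 ± 14.1 CPM per kb, n = 2) and in brain (40.3 ± 0.866 and 23.2 ± 0.0929, n = 2).

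Histone cluster messages were far more abundant in tumour-free bone than in tumour-free lung or brain. Summed over the 67 members, the level was 6423, 5814 and 5588 CPM in the bone controls, 400.5 and 339 in the lung controls and 259.9 and 269.03 in the brain controls. The groups did not overlap, and every class showed the same order of bone over lung and brain. In bulk libraries a tissue with fewer cells making a message and one with less message per cell cannot be told apart.

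**Figure D1:**
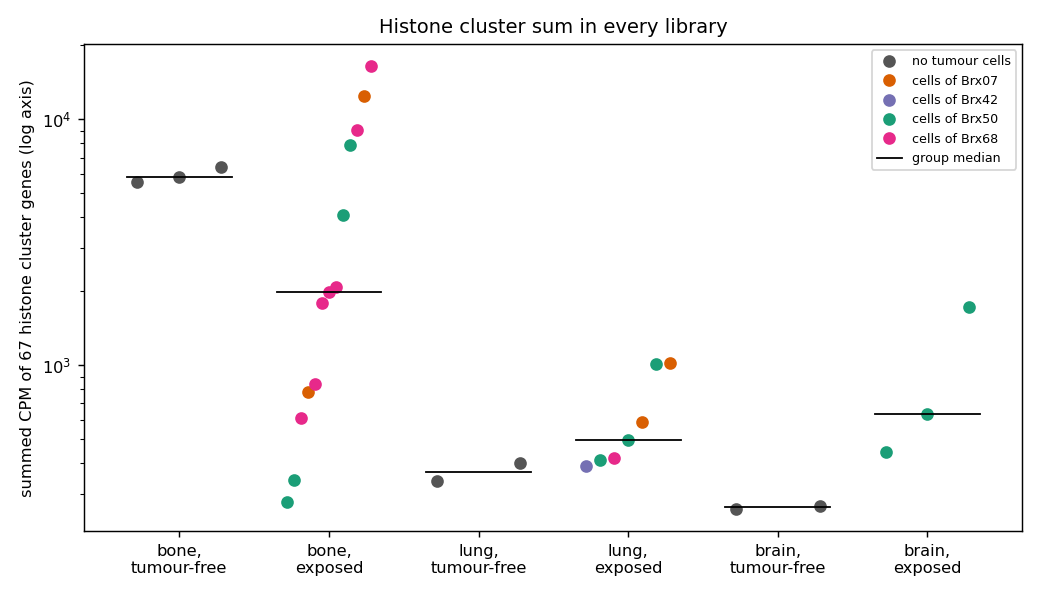
Summed CPM of the 67 histone cluster genes (vertical log axis) in each of the 30 libraries, by tissue and exposure on the horizontal axis, where each point is a library. The 3 bone controls lie between 5588 and 6423, whereas the 13 exposed bone libraries run from 279 to 16467.

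In bone over lung, tested by edgeR's quasi-likelihood test with Benjamini-Hochberg adjustment over 18859 genes, 50 members were higher and 0 lower of the 53 that passed the filter on low counts. Of all genes tested, 22.5% were higher and 22.3% lower. The other 14 members were too low to be tested. Here and in every other contrast a member could pass through the group where it was high alone, so counts and medians describe the genes tested and not all 67. The median log2 fold change of the tested members was 5.14, against 0.00 over all genes. By class, 5 of 5 H1, 12 of 13 H2A, 13 of 14 H2B, 8 of 9 H3 and 12 of 12 H4 genes were called, and the class medians ran from 4.08 in H4 to 5.33 in H1.

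Among the linker histones, Hist1h1c had 1032, 1011 and 931 CPM in the bone controls and 112.9 and 81.9 in the lung controls, so that bone was higher by 3.32 ± 0.18 on the log2 scale (SE; adjusted p = 2.15e-08). Hist1h1b, another linker histone, had 291, 232 and 237 CPM against 4.03 and 2.79, a larger difference of 6.18 ± 0.20 (adjusted p = 8.27e-10). Both were higher in all 3 bone libraries. The H1 genes differed among themselves: in lung Hist1h1c and Hist1h1e were the bulk of the H1 sum, with 97.4 ± 22.0 and 38.7 ± 7.11 CPM (SD, n = 2), while Hist1h1d stood at 7.97 ± 1.02.

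Among the core histones, the members with the largest fold changes had few counts in lung. Hist1h3g, an H3 gene, had 23.8, 24.0 and 20.6 CPM in bone and 0.179 and 0.0930 in lung, where its 3 counts give a ratio of 167 with a 95% counting interval of 56.9 to 812. Hist1h2ah, an H2A gene, was fitted at 6.86 ± 0.34 (adjusted p = 1.16e-08), but 92.1% of its stretches are shared with other genes. Hist1h2bk, an H2B gene, had 76.8, 74.6 and 79.8 CPM in bone and 1.16 and 0.837 in lung, a difference of 6.22 ± 0.26 (adjusted p = 3.19e-09). The 12 tested H4 genes ran from 3.27 ± 0.14 in Hist1h4c (adjusted p = 3.68e-09) to 5.81 ± 0.28 in Hist1h4k (adjusted p = 2.25e-08). Hist1h4c and Hist1h4d (3.69 ± 0.16) had 21.3 ± 1.79 and 32.4 ± 3.73 CPM (SD, n = 2) in lung. The smallest differences among the called core histone genes of Hist1 were those of 2 H2B genes, Hist1h2bc (2.68 ± 0.14) and Hist1h2be (2.83 ± 0.14). Differences between the classes were not tested.

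The 3 tested members that were not called were Hist2h3c2, Hist3h2a and Hist2h2be, at -0.75, -0.57 and -0.43. They lie in the smaller clusters: 44 of 44 tested Hist1 members were called, but 3 of 5 in Hist2 and 2 of 3 in Hist3. Hist2h2be (chr3:96221119-96223738, plus strand), a single-copy H2B gene with no shared stretch, had 4.16, 3.01 and 5.00 CPM in bone, 5.56 and 5.12 in lung and 6.86 and 6.40 in brain. Its level lay between 3.01 and 6.86 CPM in all 7 controls.

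In this contrast 29 of 31 tested members with a stem-loop in their annotated transcript were called (median log2 fold change 4.74), as were 21 of 22 without one (median 5.43). The split follows the annotated models, some of which are short, and does not tell how the messages end.

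**Figure D2:**
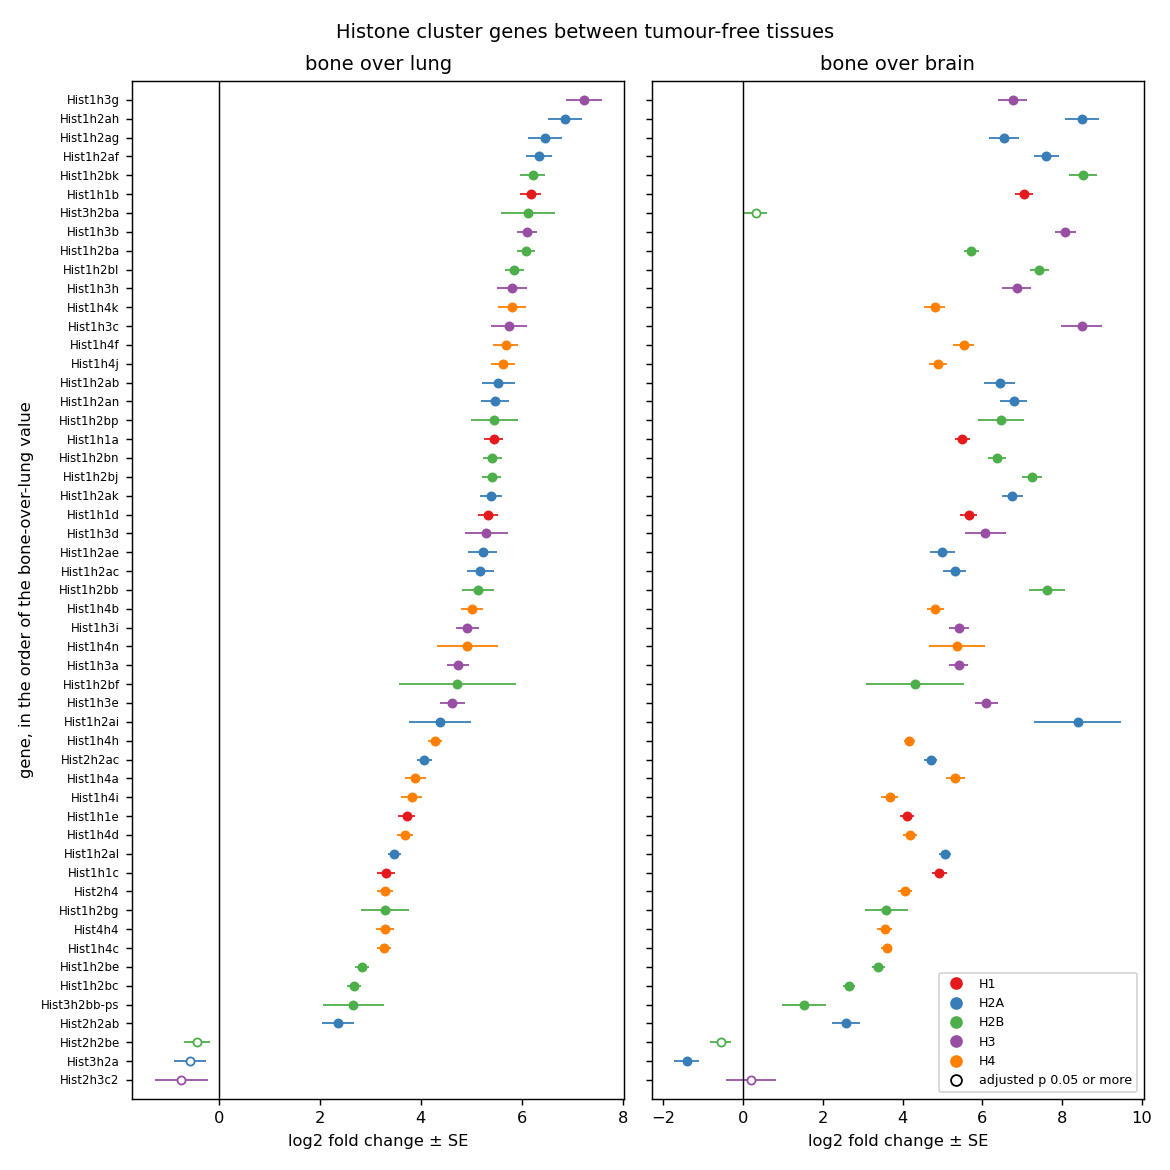
Log2 fold change with its standard error (horizontal) of each tested member (vertical, ordered by the bone-over-lung value, coloured by class) between tumour-free tissues, with open symbols for an adjusted p of 0.05 or more. Nearly all members lie far to the right in the bone contrasts, and Hist2h3c2, Hist3h2a and Hist2h2be lie at or below 0 in bone over lung.

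In bone over brain, 49 of 53 tested members were higher and 1, Hist3h2a, was lower, while 37.0% and 38.9% of all genes were higher and lower (edgeR, adjusted p). The tested members' median was 5.36, or 5.33 with members at 0 in brain put at their bound, against -0.04 over all genes. Hist3h2a (chr11:58954685-58956830, plus strand), an H2A gene whose model overlaps Trim17, had 8.29 and 7.73 CPM in brain and 2.62, 2.54 and 2.96 in bone, a log2 fold change of -1.42 ± 0.31 (adjusted p = 0.00105).

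Several S phase members were at the limit of detection in brain. Hist1h2ai had no brain count and was at least 19.3-fold higher in bone, taking 3 counts over the group as the floor. Hist1h2bk had 3 brain counts, a ratio of 354 (counting interval 121 to 1717), and Hist1h2bb had 2, a ratio of 199 (54.9 to 1645). Hist1h3b, an H3 gene, had 82.0, 69.3 and 72.6 CPM in bone and 0.319 and 0.267 in brain, a log2 fold change of 8.08 ± 0.26 (adjusted p = 5.29e-11). Those members had a few counts per brain library at most.

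Lung and brain differed less and in both directions. In lung over brain, 17 of 53 tested members were higher and 3 lower, beside 34.6% and 37.4% of all genes, with a median of 0.50 (0.49 with bounds) against -0.06. Leaving out brain control 2 left 11 calls and leaving out lung control 1 left 12. Hist1h1c was 1.61 ± 0.18 higher in lung (adjusted p = 4.56e-06), from 36.0 and 36.2 CPM in brain. Hist1h3e was 1.48 ± 0.33 higher (adjusted p = 0.00162), at 10.9 and 7.53 CPM against 2.07 and 5.20, and the value was 1.00 without brain control 1 and 2.33 without brain control 2.

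Hist3h2ba (chr11:58948920-58949533, plus strand) went the other way by the widest margin. This H2B gene had 9.73 and 9.19 CPM in the brain controls and 3 counts in the 2 lung controls together, a ratio of lung over brain of 0.0145 (counting interval 0.00295 to 0.0433) and a log2 fold change of -5.82 ± 0.58 (adjusted p = 1.45e-06). In bone it had 14.5, 10.4 and 6.94 CPM and did not differ from brain by this test (0.32 ± 0.29, adjusted p = 0.331). Hist1h4k, an H4 gene with 3.14 and 1.67 CPM in lung and 3.67 and 7.06 in brain, and Hist3h2a (-0.85 ± 0.33) were also called lower in lung (adjusted p = 0.0301 and 0.035). The Hist1h4k call was lost by limma-voom and without lung control 2 or brain control 2, and that of Hist3h2a by DESeq2 and without lung control 1 or either brain control. With 1 library left out, the fold changes ran from -1.52 to -0.42 and from -1.40 to -0.41.

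Genes that act with the histones were compared in the same fits. Of 20 S phase genes, 20 were higher in bone than in lung (median 2.30), and of 18 G2/M genes 18 were (median 4.41). Over all genes tested there, 22.5% were higher and 22.3% lower, and the median was 0.00. Mki67, a marker of dividing cells, had 1009 to 1148 CPM in the 3 bone controls and 44.1 and 54.7 in the lung controls, a log2 fold change of 4.42 ± 0.18 (adjusted p = 2.59e-09). Mcm6, a subunit of the replicative helicase, was 2.32 ± 0.12 higher (adjusted p = 1.29e-08). Top2a (4.66 ± 0.17, adjusted p = 1.43e-09) and Rrm1 (1.97 ± 0.11, adjusted p = 4.11e-08), a topoisomerase and a ribonucleotide reductase subunit, were higher too.

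Replacement variants and histone handling factors moved less in bone over lung, where 22.5% of all genes were higher and 22.3% lower. Of 11 replacement variant genes, 9 were higher in bone than in lung (median 0.85), with H3f3b, which encodes H3.3, at 0.70 ± 0.12 (adjusted p = 0.000521) and H2afy, which encodes macroH2A1, at 1.16 ± 0.12 (adjusted p = 7.97e-06). Of 15 genes for histone transcription and message processing, 10 were higher (median 0.53). Slbp, the stem-loop binding protein, was 0.89 ± 0.12 higher (adjusted p = 8.34e-05), whereas Sympk had 0.06 ± 0.11 (adjusted p = 0.698). Of 15 tested chaperone genes (16 in the list), 9 were higher and 1 lower, and the named ones, Atrx (-0.07 ± 0.15, adjusted p = 0.738) and Ubn1 (-0.22 ± 0.11, adjusted p = 0.151), were not called.

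In bone over brain 20 S phase and 18 G2/M genes were higher (medians 3.50 and 5.39). Of the replacement variants 9 were higher and 1 lower (median 2.20), as were 11 and 2 machinery (0.87) and 11 and 1 chaperone genes (1.37), beside 37.0% and 38.9% of all genes. In lung over brain the counts were 15 and 2, 12 and 1, 7 and 1, 6 and 5, and 9 and 3 in the same order of lists. Of all genes tested there, 34.6% were higher and 37.4% lower. Slbp was 2.00 ± 0.16 higher in lung than in brain (adjusted p = 1.5e-07). The clustered genes summed to 3.39 to 3.54 times the replacement variants in the bone controls, to 0.455 and 0.408 times in the lung controls and to 0.757 and 0.767 times in the brain controls.

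The study's own contrast was tumour-exposed against tumour-free stroma. In bone, exposed libraries spread to both sides of the controls, and no member was called by edgeR, whereas limma-voom with quality weights called 25 of 55. The histone sum was 279 at its lowest, 1991 at the median and 16467 at its highest in the 13 exposed libraries, against 5588 to 6423 in the controls. Bone exposed 1, 4, 10 and 11 lay above every control (12397, 7868, 9059 and 16467 CPM), the other 9 lay below every control, and none lay within. The same 4 and 9 held for the H2A, H2B, H3 and H4 sums, and for H1 3 lay above, 9 below and 1 within.

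By edgeR's quasi-likelihood test 0 of 55 tested members, and 0 of 18278 genes (0.0%), passed an adjusted p of 0.05. At an unadjusted p under 0.05 there were 0 members, beside 2.51% of all genes. The smallest adjusted p among the members was 0.970 and their median log2 fold change -0.14, against 0.08 over all genes. A limma-voom fit with sample quality weights, an alternative, called 25 of the 55 members, all lower, among 15.7% of all genes, and gave a median of -1.75. DESeq2 called 0 members. No member had all exposed libraries above all controls (0.0328% of the genes tested) or all below (0.202%).

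**Figure D3:**
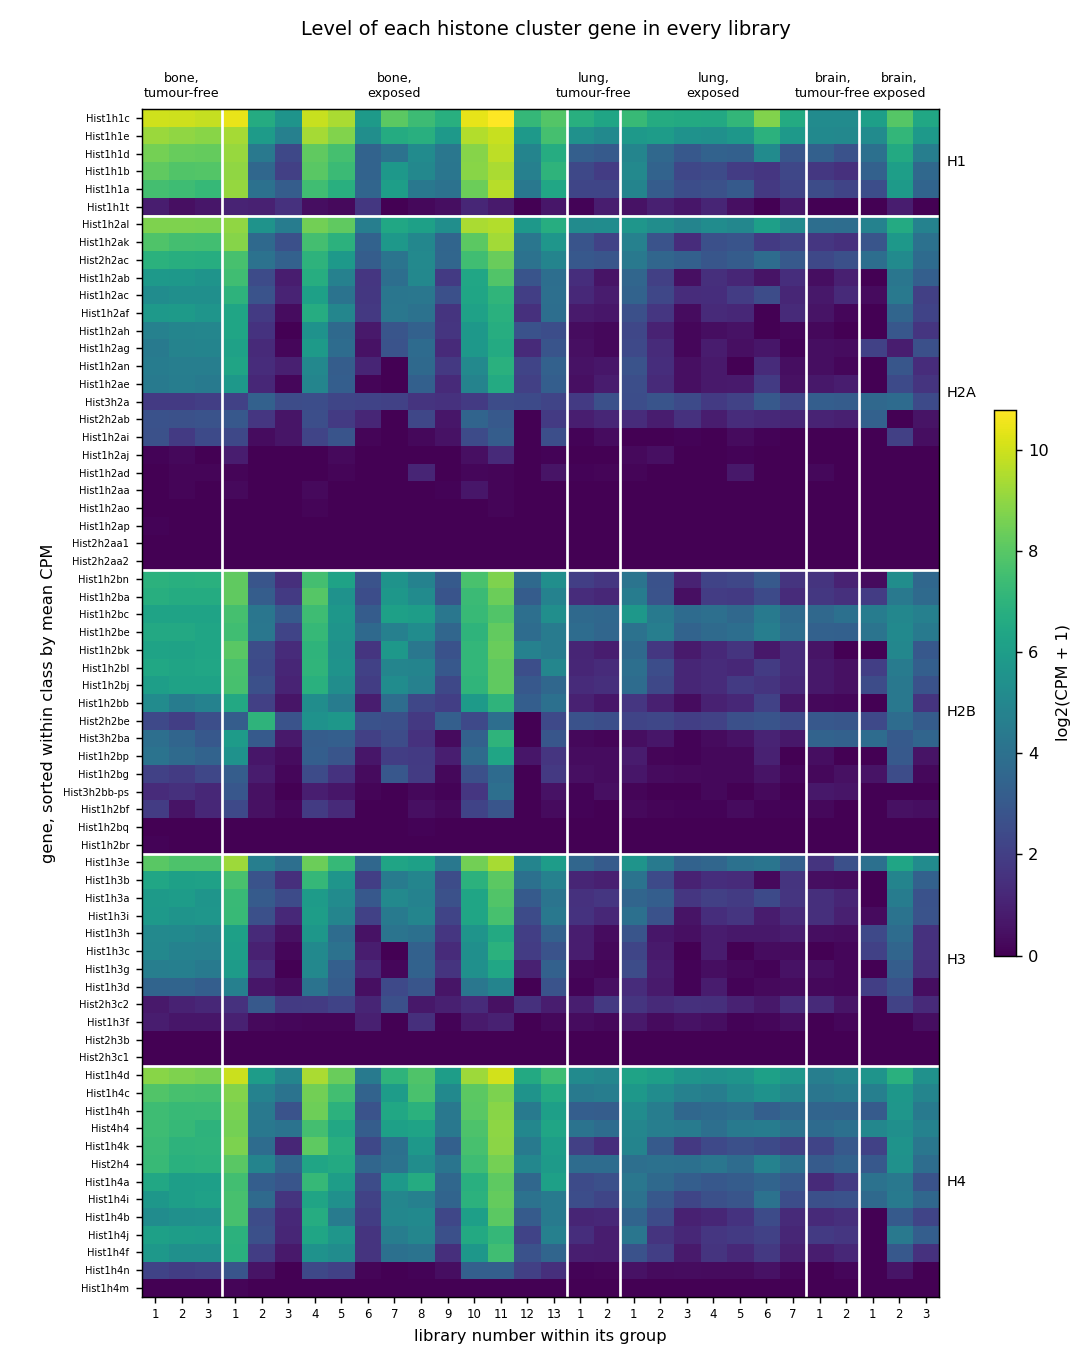
Level of each member (rows, sorted within class by mean CPM) in every library (columns, by group), with colour for CPM on a log scale. The bone controls and bone exposed 1, 4, 10 and 11 are high in nearly all rows, and rows that are near-identical copies stay empty.

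The position of a library was shared by most of its members. In bone exposed 1, 54 of the 55 tested members lay above all bone controls and 0 below, beside 35.5% and 40.4% of the 18278 genes tested. In bone exposed 11 the counts were 53 and 1, beside 33.8% and 42.7% of genes. In bone exposed 2 they were 4 and 50, beside 52.6% and 30.6%, and in bone exposed 5 they were 4 and 47, beside 35.8% and 36.7%. Hist1h1c had 1384 and 1791 CPM in exposed 1 and 11, 47.2 in exposed 3 and 931 to 1032 in the controls, so the most abundant linker histone spanned both sides of the controls.

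Markers of division and some other gene lists lay on the same side of the controls as the histone sum in all 13 exposed bone libraries. The cell type lists below did not in every library. Mki67 was 1589 to 3738 CPM in the 4 libraries above the controls, 1009 to 1148 in the controls and 54.9 to 675 in the 9 below. The 20 S phase genes summed to 1841 to 3091, 1506 to 1633 and 309 to 1063 CPM in that order, and the 18 G2/M genes to 3389 to 6149, 2122 to 2283 and 171 to 1431. The split was the same for 16 chaperone genes (1673 to 1979, 1362 to 1445 and 825 to 1175 CPM). It also held for 15 machinery genes (697 to 925, 598 to 634 and 295 to 543). A list of 3 genes taken as polyadenylated background split likewise (1163 to 2041, 1013 to 1112 and 60.3 to 805). That list was not level between tissues, at 98.0 to 131 CPM in the lung and 54.5 to 57.4 in the brain controls. Of the cell type lists, 9 late neutrophil genes summed to 19427 to 53080, 28479 to 39129 and 103 to 25309, and 6 neutrophil precursor genes to 708 to 4373, 2215 to 3191 and 0.968 to 1684. Both lists were below every control in bone exposed 11, the library with the highest histone sum, at 19427 and 708 CPM. Of the precursor genes, Mpo, Elane, Ctsg, Ms4a3 and Cebpe were at 0 in bone exposed 12, and Ltf, Camp, Ngp, S100a8, Retnlg and Mmp8 of the late ones. The 6 fibroblast genes summed to 4589.6 to 10815, 11054 to 20875 and 7054 to 68157 CPM. By edgeR none of the genes in the S phase, G2/M, neutrophil and fibroblast lists was called in exposed bone, and 0 had an unadjusted p under 0.05. DESeq2 also called 0. Limma-voom with quality weights called 15.7% of all genes. It called 14 of 20 S phase, 11 of 18 G2/M, 9 of 9 late neutrophil and 6 of 6 precursor genes, all lower. Of the fibroblast genes it called 0 of 6. The part of these lists in the histone levels was not tested.

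**Figure D4:**
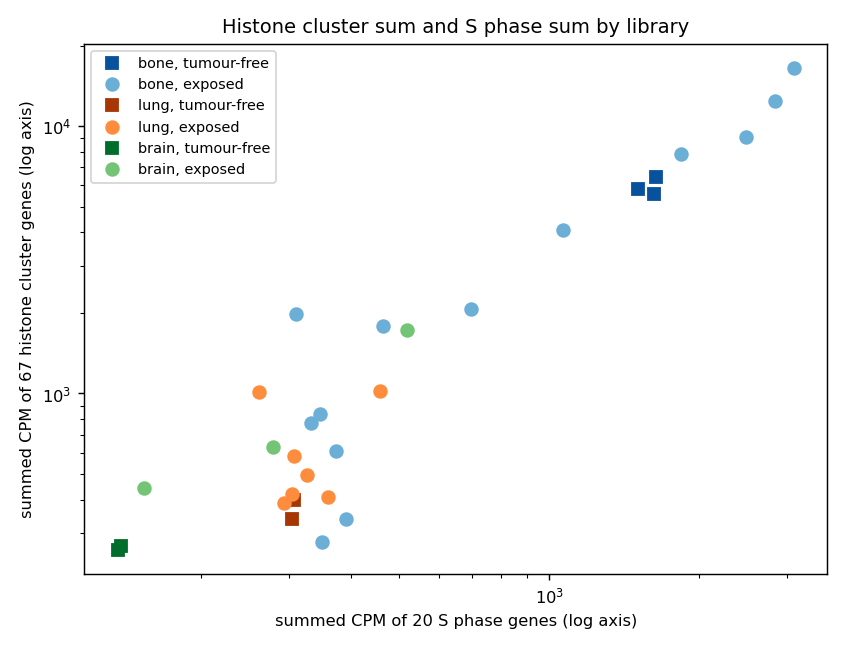
Summed CPM of the 67 histone cluster genes (vertical log axis) against that of 20 S phase genes (horizontal log axis), with a point per library coloured by tissue. Bone exposed 11, at 3091 and 16467, is highest on both axes and brain control 1, at 136 and 259.9, lowest on both, while lung exposed 6, at 261 and 1009, has a lower S phase sum than either lung control.

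Bone exposed 1 and 11 also differed from the controls in which members they held. Hist1h1a, the linker histone gene known for early development and dividing cells, made up 15.0% and 15.6% of the H1 counts there against 7.13% to 7.72% in the controls. The share was also 13.1% in bone exposed 7 and 11.1% in bone exposed 13, whose histone sums lay below the controls. In bone exposed 1 and 11, Hist3h2ba had 59.7 and 130.4 CPM against 6.94 to 14.5 in the controls. Its neighbour Hist3h2bb-ps had 6.71 and 14.4 there, against 1.30 to 1.79. The clustered genes summed to 6.91 and 10.4 times the replacement variants in bone exposed 1 and 11. Erythroid genes summed to 6144 and 13266 CPM in bone exposed 1 and 11 against 516 to 1219 in the controls (10 genes, Hba-a2 at 0 in bone control 3). Their part was not tested.

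In bone exposed 8 the H4 genes took 46.4% and the H1 genes 18.4% of the histone counts, against 24.9% to 26.1% and 37.5% to 38.5% in the controls. Hist2h2be, the H2B gene that was not called in tumour-free bone over lung, was above every control in 9 of 13 exposed bone libraries and below in 2. It had 0 CPM at its lowest, 5.88 at the median and 131.3 at its highest, against 3.01 to 5.00 in the controls. Its fitted log2 fold change, 2.31 ± 1.38, was the largest of the 55 tested members but was not called (adjusted p = 0.970 by edgeR). The highest values were in bone exposed 2, 5 and 4 (131.3, 51.6 and 44.7 CPM). Bone exposed 2 was the skull library with brain markers, and these markers summed to 90.8 and 42.2 CPM in bone exposed 5 and 4. In the brain controls Hist2h2be itself had a mean of 6.63 CPM (n = 2). The part of the brain markers was not tested.

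The testis-associated members differed in level. Hist1h2ba, known as a testis H2B gene, had 108, 98.4 and 98.4 CPM in the bone controls and was called higher than in lung (6.08 ± 0.18, adjusted p = 5.46e-10), although 38.2% of its stretches are shared. Hist1h1t, the testis linker histone, stayed at or below 2.40 CPM in all libraries, with 21 counts in the bone controls and 0 in the brain controls (at least 2.80-fold). Hist1h2aa reached 0.583 CPM at most.

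Between the CTC lines, 0 of 55 tested members differed in exposed bone, Brx68 against Brx50, by edgeR's adjusted p (0.0% of 19052 genes), and 1 did at an unadjusted p under 0.05 (4.83% of all genes). DESeq2 and limma-voom called 0 members. By edgeR 51 of the 55 were fitted higher in Brx68, with a median log2 fold change of 0.82 against -0.01 over all genes. Without bone exposed 11 there were 22 and the median was -0.09, and limma-voom gave 15 and -0.25. The sum ran from 279 to 7868 CPM with a median of 2209.9 in the 4 Brx50 libraries and from 610.2 to 16467 with a median of 1991 in the 7 Brx68 libraries. The lines overlapped between 610.2 and 7868 CPM. The Brx07 pair had 12397 and 779 CPM, from leg and skull.

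In lung, the exposed libraries were mostly higher by a small margin that no test called. The sum was 389 at its lowest, 495.9 at the median and 1018 at its highest, against 400.5 and 339 in the controls, with 6 of 7 libraries above both. By edgeR 0 of 43 tested members and 0.0% of 17132 genes passed the adjusted threshold, and 2 members did at an unadjusted p under 0.05 (0.689% of all genes). DESeq2 and limma-voom also called 0 members. The median log2 fold change was 1.11 against 0.08 over all genes. The excess was largest in 2 libraries, lung exposed 1 and 6, at 1018 and 1009 CPM, and without them the log2 ratio of the mean sums was 0.32 in place of 0.74.

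The H4 sum was the class in which all 7 exposed lung libraries lay above both controls, at 133 to 307 CPM with a median of 155 against 109.5 and 100.4. Of the 67 members, 6 had all exposed libraries above all controls and 0 below. All 6 were H4 genes (Hist1h4a, Hist1h4c, Hist1h4d, Hist1h4h, Hist1h4n and Hist2h4), named after their values were seen. Over the 17132 genes tested, 1.02% lay above and 2.01% below in that way, and 5 of the 6 were among the tested genes. Hist1h4d had 42.9 at its lowest, 49.5 at the median and 76.9 CPM at its highest in exposed lung against 35.03 and 29.8, but its adjusted p by edgeR was 1.000.

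The 2 high lung libraries differed in composition. Lung exposed 1 was highest in every class except H1, with 108 CPM of H3 genes against 19.0 and 15.5 in the controls, 32.6 CPM of Hist1h1b against 4.03 and 2.79, and Mki67 at 141 against 44.1 to 54.7. Its fibroblast genes summed to 42064 CPM against 1742 to 2068, and its endothelial genes to 1156 against 4574 to 5247. Lung exposed 6 had instead 59.2% of its histone counts in H1, with Hist1h1c at 432 CPM, Hist1h1e at 123.7 and Hist1h1d at 36.3. There Hist1h1a and Hist1h1b, at 2.47 and 2.26 CPM, lay below both controls, as did the S phase sum, 261 against 304 to 308. Its endothelial, fibroblast and macrophage genes summed to 160.5, 254 and 1889 CPM, below the controls. Its late neutrophil genes summed to 2409 CPM against 987 to 1017, the highest of the lung libraries, and the replacement variants to 1492 against 832 to 879. No endothelial or fibroblast marker was at 0 in it. Their part was not tested.

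**Figure D5:**
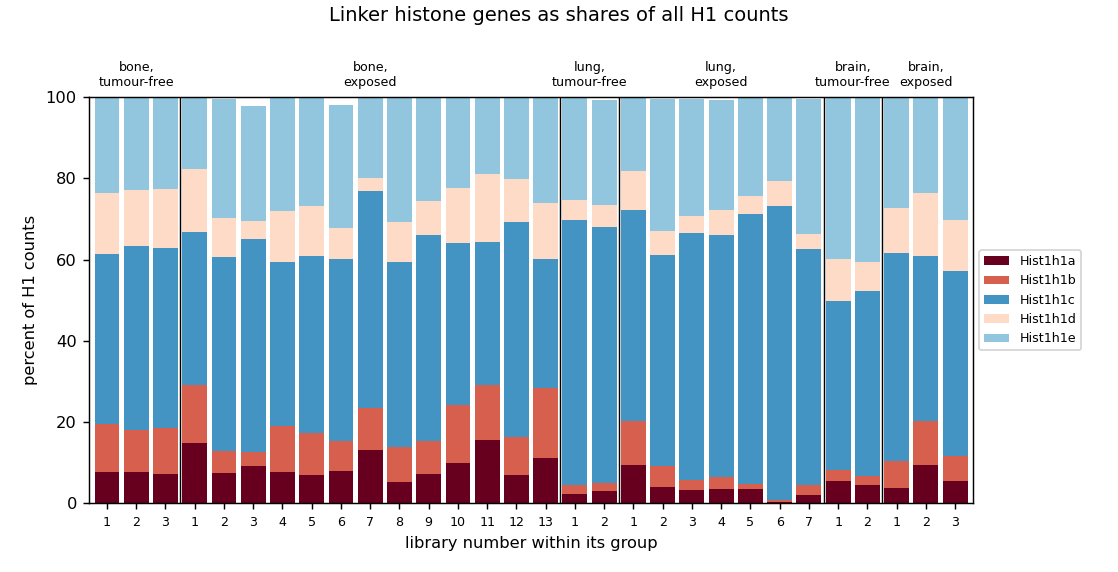
Share (percent, vertical) of the H1 counts taken by each linker histone gene, in bars stacked to 100 for each library (horizontal). The Hist1h1a share is 15.0% and 15.6% in bone exposed 1 and 11, 13.1% in bone exposed 7 and 7.13% to 7.72% in the bone controls, and Hist1h1c takes 72.4% in lung exposed 6.

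In brain, the histone genes were higher in all 3 exposed libraries, at 445, 1734 and 631 CPM against 259.9 and 269.03, and every class sum lay above both controls. Of 45 tested members 0 passed edgeR's adjusted threshold, which 0.00598% of 16734 genes did. Their median log2 fold change was 2.45 against 0.03 over all genes, but some could pass the low count filter through their exposed level alone, such as Hist1h3c and Hist1h2ah, with means of 0.0666 and 0.0797 CPM in the controls. At an unadjusted p under 0.05 there were 21 members, beside 13.6% of all genes. Other fits called more: 12 members by DESeq2 (4.25% of all genes), 11 by limma-voom with quality weights (5.37%) and 2 of 56 without the filter on low counts (1.0%). All 3 exposed libraries lay above both controls in 23 members and below in 1, Hist3h2bb-ps, while 19.9% and 18.6% of tested genes did so.

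The members with the smallest adjusted p were Hist1h3e, Hist1h2bj and Hist1h2bl. Hist1h3e had 14.9, 80.6 and 36.0 CPM in exposed and 2.07 and 5.20 in control brain, a log2 fold change of 3.50 ± 0.81 (adjusted p = 0.248 by edgeR). Hist1h2bj had 4.66, 19.2 and 5.54 against 0.638 and 0.400, and Hist1h2bl 3.03, 21.9 and 8.71 against 0.638 and 0.400. Hist1h1c had 67.8, 249 and 84.9 against 36.0 and 36.2 (1.81 ± 0.56, adjusted p = 0.301). In each of them brain exposed 2 was the highest library. Hist3h2a, Hist3h2ba and Hist2h2be, the 3 members with the smallest fold changes here, were fitted at 0.19, 0.08 and 0.28.

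Brain exposed 2 carried much of the difference. Without it, the log2 ratio of the mean sums fell to 1.03 from 1.82. That library had 252 CPM of Mki67 against 5.46 and 7.34 in the controls, 519 of S phase genes against 136 and 138, and 3712 of late neutrophil genes against 19.3 and 22.4. In brain exposed 1, where 6 of 6 precursor markers were at 0, the histone sum was 445 CPM and the late neutrophil sum 32.9. In brain exposed 3 the sums were 631 and 131.5. Neuron genes summed to 552 to 1938 CPM in exposed and 2302 to 2996 in control brain, and macrophage genes to 1427 to 3458 against 409 to 654. The part of these in the histone levels was not tested.

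The exposure effect was compared between tissues by interaction terms in edgeR fits over 21233 genes. Bone minus lung, bone minus brain and lung minus brain each called 0 of 55 members and 0.0% of genes. At an unadjusted p under 0.05 there were 0, 5 and 1 members, beside 1.12%, 8.34% and 3.95% of all genes. For bone minus brain, limma-voom called 6 members, all lower (7.75% of genes), and DESeq2 0. A difference between tissues in the exposure effect on these genes was not detectable in the quasi-likelihood fits.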

How the data were processed

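Total RNA of 30 mouse stromal libraries was sequenced, and the authors deposited their counts as 1 table of Ensembl mouse genes by library, not normalized. Whole numbers were found throughout. STAR 2.5.2b, HTSeq and human (hg19, GRCh37) and mouse (mm10, GRCm38.p5) builds are listed, per the submitters' processing notes, without a role. Annotation version, strand setting, separation of human from mouse sequence and treatment of reads that fit several genes were not given in the sources used here, and each could change levels of copied or overlapping genes.

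Symbols and gene models came from GENCODE M21 (GRCm38), and 42462 of 43346 IDs had a symbol. Levels are CPM, counts scaled to a library total of 1000000. Tests used edgeR 4.0.16 (R 4.3.3) with TMM scaling, the filterByExpr filter and robust quasi-likelihood F-tests, two-sided, on the counts as deposited, with Benjamini-Hochberg adjustment over all genes tested and a threshold of 0.05. Each tissue was fitted alone for exposure, the 7 controls together for tissue, and all libraries for interactions. For line, all 13 exposed bone libraries were fitted in groups of Brx07, Brx50 and Brx68, and Brx68 was compared with Brx50. Alternatives were RLE and upper quartile scaling, no filter, DESeq2 1.42.0, limma 3.58.1 voom with quality weights, each replicate left out and the replicate number as a block. The code was tested on simulated data. Class sums got no p. Counting intervals are exact at 95%, cover counting error only, and use a floor of 3 counts for a group at 0. Stretches of 50 bases shared between exon models measured how far members are copies.

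Named genes followed a rule: up to 6 called members per direction by fold, the 3 members of each class with the highest mean CPM (pseudogenes left out), the testis members, and 2 genes per list. Others are named where a count or library singled them out. The members and lists were chosen with earlier results of these data known. Replicate numbers recur among the controls only, and the labels do not say what they share. They were read from the titles, and the description fields of the brain controls give other numbers. Control libraries of a group differed by a chi-square of 9.64 or more per degree of freedom, so none was taken for a repeat of another.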

Additional observations from a re-analysis of the deposited data

Results flagged for a closer look

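Of 68 groups of values examined for a single library far from the rest of its group, 17 stood out. The nominal chance rate was about 1 in 20. Sums and their own members, measured in the same libraries, were among these groups. They are not independent, so the 17 cannot be read against that rate. In exposed lung, library 6 was far above the other 6 in the H1 sum (597 CPM, next 301), Hist1h1c (432, next 156) and Hist1h1e (123.7, next 62.4), 2 linker histone genes.

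Exposed lung library 1 was far above the others in the H2B sum (155 CPM, next 73.1) and the H3 sum (108, next 43.1). Among its members this held for the H2A genes Hist1h2ab (10.8 CPM) and Hist1h2ak (25.8), the H2B genes Hist1h2ba (22.2), Hist1h2bc (53.3) and Hist1h2bn (16.8), and the H3 genes Hist1h3b (16.1) and Hist1h3e (47.0).

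In exposed bone, library 11 was far above the other Brx68 libraries in Hist1h2ab (236 CPM), Hist1h2ak (624.7) and Hist1h3a (234). Hist1h2aa was 0.225 CPM in library 4 and 0 in the other Brx50 libraries, and 0.583 CPM in library 10 of Brx68, next to 0.101, all values near the limit of detection.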

How the results depend on the processing

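Scaling (RLE, upper quartile) left every count of called members within 1.5 times its value. Counts moved further in these cases: limma-voom with quality weights called 25 members in exposed bone, 11 in exposed brain, 13 in tumour-free lung over brain and 6 in the bone minus brain interaction. DESeq2 called 12 members in exposed brain, and the fit without a filter called 2. Leaving out 1 library gave 11 to 21 calls in lung over brain, 49 to 50 in bone over lung, 48 to 50 in bone over brain and 0 in the exposure, line and interaction contrasts. Direction reversed for Atrx in bone over lung (0.028 without bone control 1, 0.058 without lung control 2, lowest -0.18), for Hist1h2ab in lung over brain (-0.30 without lung control 1, highest 1.91) and for Hist1h2bc there (0.011 without the filter, 0.17 without brain control 2, 0.085 without lung control 2, lowest -0.19). The cause was not tested. In contrasts without calls, fitted signs of named genes flipped in 33 of 546 values for bone exposure, 13 of 362 for lung, 11 of 246 for brain and 62 of 416 for line. The median of all genes in bone exposure was 0.08, 0.15 and 0.20 under TMM, RLE and upper quartile scaling.

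The log2 ratio of exposed over control mean sums was -0.40 in bone, and -1.14 without libraries 1 and 11, a choice made after seeing the data. For the H2A sum the ratio depended on pseudogenes. With and without them it was -0.52 and -0.34 in bone, 0.45 and 0.84 in lung, and 2.11 and 2.25 in brain. With the replicate number of the controls as a replicate block, which leaves out bone control 3, 49, 49 and 20 members were called in bone over lung, bone over brain and lung over brain. By the numbers in the titles, same-numbered controls deviated together little. The correlations were 0.03 for bone and lung, -0.06 for bone and brain and -0.03 for brain and lung. The description fields of the brain controls give other numbers than their titles. The block and the correlations with brain rest on the titles and cannot decide whether libraries are paired. The numbers were not taken as pairs. Depth limits the members with few counts in lung and brain, and 2 or 3 controls per tissue limit every exposure test.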
